A study of Homo sapiens with 12 samples.

Results

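The genes described here are the kinases DYRK1A, DYRK1B, DYRK2, DYRK3, DYRK4, HIPK1, HIPK2 and HIPK3, the scaffold protein DCAF7 and the DREAM complex subunit LIN52. They were chosen by name, with earlier results of these data known, because DYRK1B was the gene manipulated. The others are its relatives, a binding partner (DCAF7) and a protein that DYRK1A phosphorylates (LIN52). These 10 genes were each found once among the 40605 rows of the merged gene table, and all 10 passed the filter on low counts that left 13838 genes for testing. RNA was sequenced as 3' tags, which sample each transcript close to its poly(A) tail, in 12 libraries of A549, a human lung adenocarcinoma cell line. Every line carried DYRK1B under doxycycline control, either as the wild-type kinase (WT) or as the Y273F form, in which phenylalanine replaces a tyrosine. Each line was grown for 7 days, either in 2 µg/ml doxycycline or untreated (control), with 3 libraries in each of the 4 groups. Every sample carried a transgene, so doxycycline itself and induced DYRK1B cannot be told apart. The series text names independent cell populations handled in parallel, and every library carries the same batch label.

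DYRKs are kinases that phosphorylate serine and threonine in their targets, but that first phosphorylate a tyrosine in their own activation loop while they fold. DYRK1A and DYRK1B form class I, act largely in the nucleus, and are known for slowing the cell cycle, in part by phosphorylating cyclin D and stabilising the inhibitor p27. DYRK2, DYRK3 and DYRK4 form class II, and HIPKs are nuclear relatives that act on transcription and the p53 response. DCAF7, also called WDR68, binds class I DYRKs and HIPK2, and LIN52 is the MuvB subunit that DYRK1A phosphorylates to assemble DREAM, a complex that represses cell-cycle genes in quiescent cells.

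The residue changed in Y273F is that tyrosine of the activation loop, and its codon is shown because it is the only designed difference between the lines. In the reference, its codon in DYRK1B is TAT at chr19:39827645-39827647 (GRCh38, minus strand), in exon 7 of 11. The codon aligned to it in the translated reference transcripts (GENCODE release 29) also encoded tyrosine in each of the other 7 kinases. The windows run 5' to 3' with 21 bases on each side of the codon, and the capitals mark the tyrosine codon.
DYRK1B: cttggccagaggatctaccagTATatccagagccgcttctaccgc
DYRK1A: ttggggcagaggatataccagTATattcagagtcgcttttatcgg
DYRK2: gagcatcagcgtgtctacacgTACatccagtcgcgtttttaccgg
DYRK3: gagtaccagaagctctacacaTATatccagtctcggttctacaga
DYRK4: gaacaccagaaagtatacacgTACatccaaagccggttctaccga
HIPK1: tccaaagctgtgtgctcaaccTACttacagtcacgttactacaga
HIPK2: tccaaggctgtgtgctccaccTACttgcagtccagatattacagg
HIPK3: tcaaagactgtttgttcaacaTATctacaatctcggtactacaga
The DYRK1A window matched that of DYRK1B at 36 of 45 bases, the class II windows at 27 to 30, and the HIPK windows at 15 to 17. The DYRK1B codon lies 1436 bases from the 3' end of the reference transcript. Counts per gene carry no sequence, so WT and Y273F transcripts cannot be told apart in them, nor can transgene and endogenous DYRK1B. How the construct ends at its 3' side is not stated in the labels, and a transgene lacking the natural 3' end could escape counting.

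DYRK1B, the induced gene, did not follow the titles. Levels are read counts per 1000000 counts of the library (CPM), scaled by TMM factors. In the WT control libraries 1, 2 and 3 it was read at 5.70, 3.12 and 5.52 CPM, and in the WT doxycycline libraries 1, 2 and 3 at 28.0, 4.00 and 7.72 CPM. In the Y273F control libraries it was read at 2.60, 12.4 and 3.18 CPM, and in the Y273F doxycycline libraries at 4.57, 4.81 and 19.7 CPM. Of the 6 libraries labelled doxycycline, 4 therefore lay at or below 7.72 CPM, and the library labelled Y273F control 2 lay above those 4. The control and doxycycline groups overlapped in both lines. Labels and DYRK1B levels thus do not go together, and every direction given below for a title group is that of the libraries as labelled.

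The whole-transcriptome profiles of these libraries followed sets of library numbers more than titles, but only set 2/6/10 stood clearly apart. That set lay entirely above or below the other 9 libraries for 34.1% of genes tested, against 2.34% to 5.35% for each other set. Some libraries were nearer a library of another set than a set mate. Between counts, the chi-square per degree of freedom (lower is nearer) was 9.38 for libraries 3 and 4, against 13.4 for 4 and 12. The sets are libraries 1/5/9 (WT control 1, WT doxycycline 2, Y273F control 3), 2/6/10 (WT control 2, WT doxycycline 3, Y273F doxycycline 1), 3/7/11 (WT control 3, Y273F control 1, Y273F doxycycline 2) and 4/8/12 (WT doxycycline 1, Y273F control 2, Y273F doxycycline 3). The sets were recognised from profiles of these same libraries, so they are used for description, with no test between them, and no set is assigned a condition. Totals ranged from 2820000 to 22300000 counts per library, so that 3 counts equal 0.134 to 1.07 CPM. That floor covers counting error only. Libraries 2/6/10 stood apart in markers of fibroblasts and smooth muscle, whose 6 genes summed to 182 to 246 CPM there against 29.0 to 54.5 CPM in the other 9. COL1A1 made up most of that sum, at 134.5 to 195 CPM, with ACTA2 and LUM also entirely above the rest. DCN was at 0 in libraries 2/6/10, COL1A2 at or under 0.351 CPM and PDGFRB at or under 0.890 CPM, and these 3 overlapped with the other 9. The sum of 9 epithelial and A549 markers was 17800 to 21860 CPM in libraries 2/6/10 and 13810 to 16810 CPM in the others, but its members went different ways. The keratins KRT8, KRT18 and KRT19 lay entirely above the other 9 libraries (KRT18 at 6112 to 8454 against 2258 to 3357 CPM). CDH1, NQO1 and AKR1C1 lay entirely below (CDH1 at 24.3 to 30.2 against 43.4 to 65.6 CPM), and the remaining 3 overlapped. Summed alveolar type 2 and endothelial markers stayed under 0.664 and 0.578 CPM in every library, and immune markers at or under 3.89 CPM. The part of these markers in the results was not tested.

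Read by library set, DYRK1B was high in all 3 libraries of set 4/8/12. These were the libraries at 28.0, 12.4 and 19.7 CPM, from 197, 38 and 184 counts. The other 9 libraries lay between 2.60 and 7.72 CPM, from 13 to 72 counts each, and did not overlap with them. The median of set 4/8/12 was 4.31-fold that of the other 9, a difference of 2.11 on the log2 scale. Only 1.17% of all genes tested lay with libraries 4/8/12 entirely above the other 9. DYRK1B was the only one of the 10 genes to do so, and 0 of the 10 lay entirely below, as 1.27% of all genes did.

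**Figure D1:**
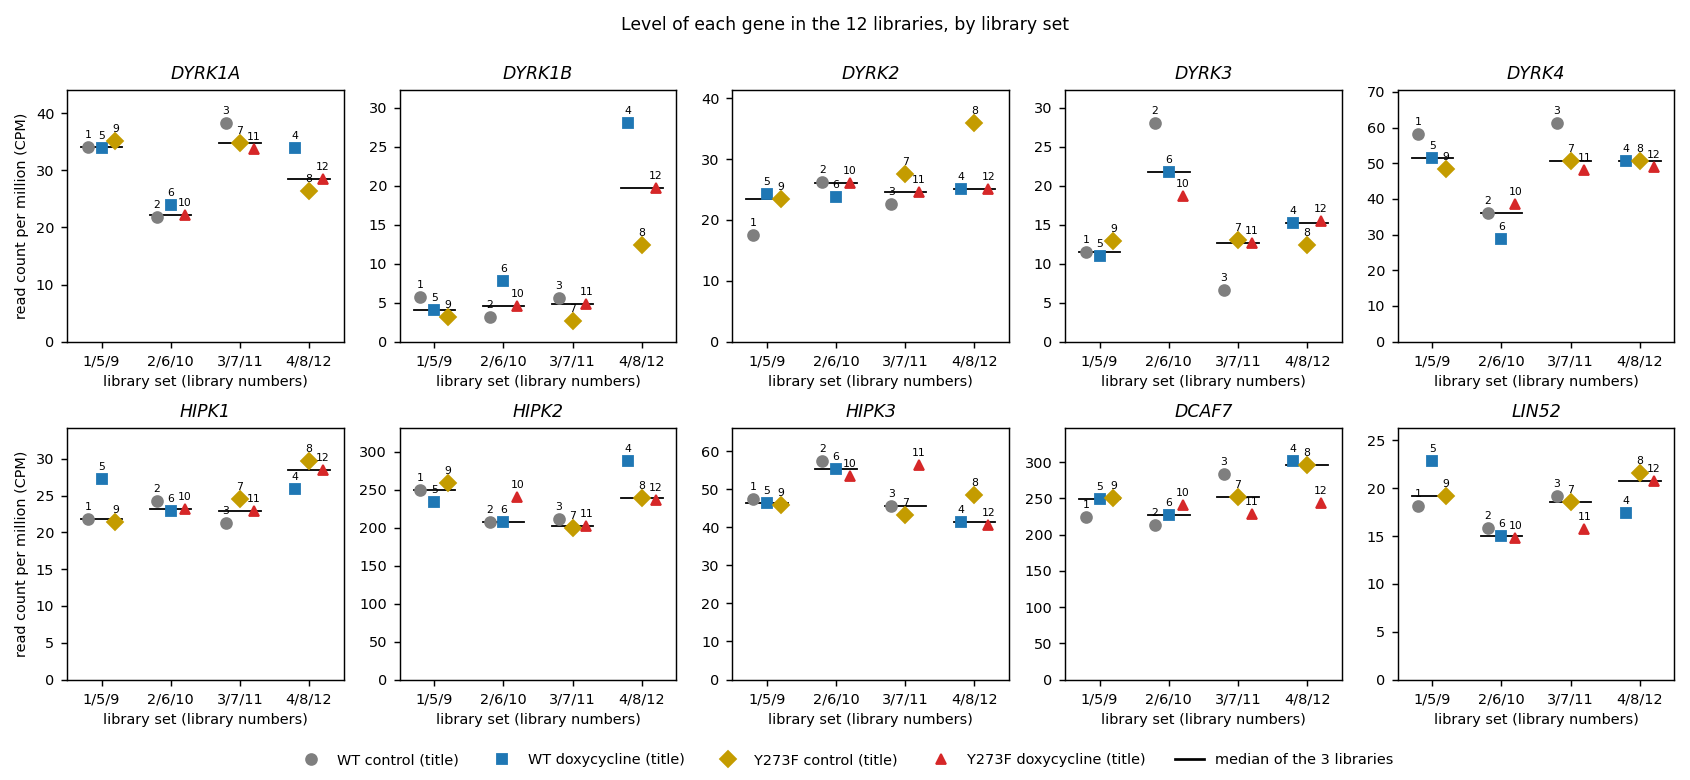
Each panel plots one gene's level in CPM (linear axis from 0) in the 12 libraries, placed by library set; numbers are library numbers, colour and shape show the title, and black lines are set medians. DYRK1B is high in libraries 4, 8 and 12, which carry 3 different titles, while DYRK3 is high and DYRK1A and DYRK4 are low in libraries 2, 6 and 10.

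Tested by title, DYRK1B averaged 4.78 ± 1.44 CPM in WT control and 13.3 ± 12.9 CPM in WT doxycycline (SD, n = 3 each). Its log2 fold change was 1.44 (SE 0.82, 95% interval -0.36 to 3.23, adjusted p = 0.9997 by edgeR's quasi-likelihood test). Without library 4, labelled WT doxycycline 1, this value was 0.26. In the Y273F line the means were 6.06 ± 5.50 CPM without doxycycline and 9.68 ± 8.65 CPM with it (SD, n = 3 each). The log2 fold change there was 0.87 (SE 0.84, interval -0.96 to 2.71, edgeR adjusted p = 0.9924). Without library 12, labelled Y273F doxycycline 3, it was -0.25. The difference in the WT line was larger than the spread of the WT control libraries but smaller than the SD of the WT doxycycline libraries. The difference in the Y273F line was smaller than the SD of either of its groups. The difference of the effects in the lines, WT minus Y273F, was 0.56 on the log2 scale (SE 1.16), and its interval of -1.99 to 3.11 holds both a large excess and a large deficit of the WT effect.

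None of the 10 genes passed the test in any of the 4 comparisons. The share of all 13838 genes called at an adjusted p under 0.05 was 0% in each comparison, so the count of the 10 says nothing particular about them. At an unadjusted p under 0.05, edgeR gave 134 genes for doxycycline in the WT line, 225 for doxycycline in the Y273F line, 165 for the difference of these effects and 460 for Y273F control against WT control. Across the 4 comparisons, DESeq2 called 0 genes, with 116 to 481 at an unadjusted p under 0.05, and limma-voom called 0, with 158 to 478. With each tool, every such count was under a fraction of 0.05 of the 13838 genes, the fraction expected if nothing differed. None of the 10 genes was among edgeR's at that unadjusted level, which therefore says nothing particular about the 10 genes. Their median log2 fold change was 0.10 in the WT line, with 7 of 10 positive, and -0.08 in the Y273F line, with 3 of 10 positive, against medians of 0.00 and 0.01 over all genes tested. These comparisons share control libraries with the other contrasts.

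**Figure D2:**
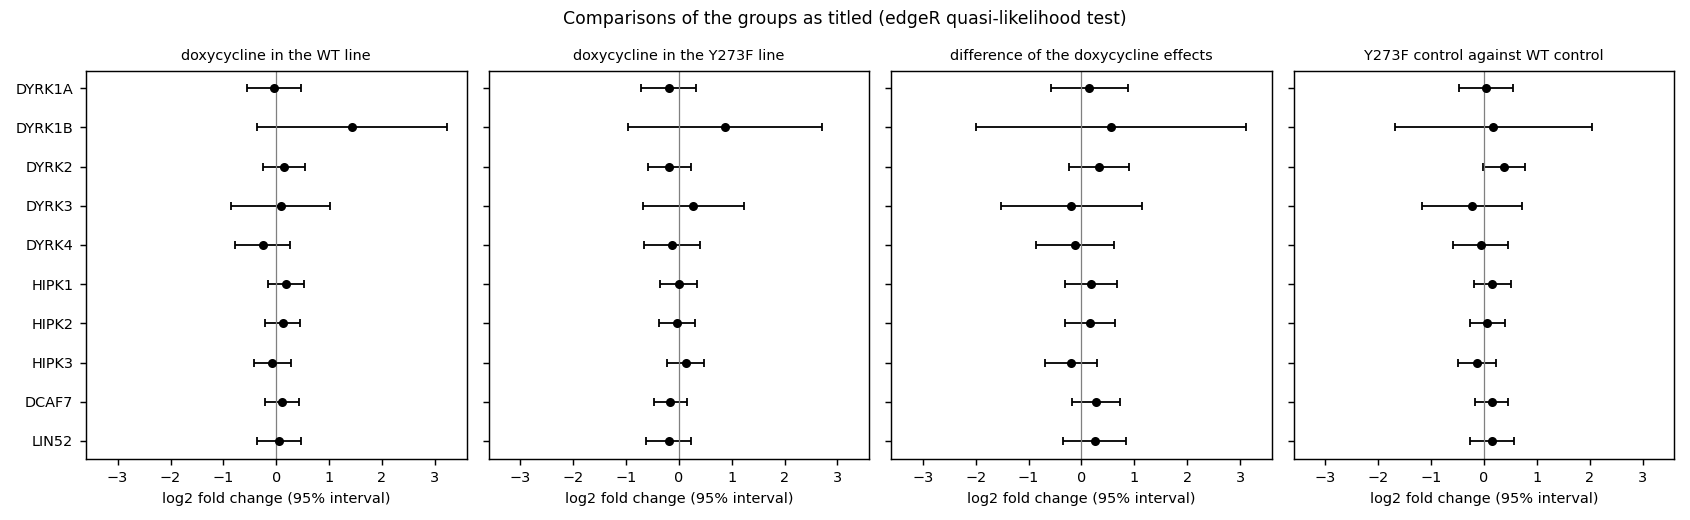
Points are log2 fold changes of the 10 genes in the 4 comparisons of groups as titled. Bars are 95% intervals derived from the F statistic of edgeR's quasi-likelihood test over 12 libraries. Every interval includes 0, and those of DYRK1B are the widest, reaching from -0.36 to 3.23 in the WT line.

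DYRK1A, the other class I kinase (chr21:37365573-37526358), was read at 21.8, 24.0 and 22.1 CPM in libraries 2, 6 and 10. In the other 9 libraries it lay between 26.5 and 38.3 CPM, above all 3 of these. The set median was 0.651 times that of the other 9. All genes tested lay with libraries 2/6/10 entirely below the other 9 in 15.6% of cases and entirely above in 18.5%, so such a pattern is common in this table. By title, DYRK1A ranged from 28.1 ± 5.86 CPM in Y273F doxycycline to 32.2 ± 4.94 CPM in Y273F control (SD, n = 3 each), and its log2 fold change was -0.04 (SE 0.23) in the WT line and -0.19 (SE 0.24) in the Y273F line. In libraries 4/8/12, where DYRK1B was high, DYRK1A was read at 34.0, 26.5 and 28.4 CPM and overlapped with the other 9.

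DYRK2, the class II kinase that primes JUN and MYC for degradation and acts as a scaffold of a ubiquitin ligase (chr12:67648745-67665406), was the most even of the class II genes. Its levels were 17.4, 24.3 and 23.4 CPM in libraries 1, 5 and 9, then 26.3, 23.7 and 26.0 CPM in libraries 2, 6 and 10. They were 22.5, 27.5 and 24.6 CPM in libraries 3, 7 and 11 and 25.0, 35.9 and 25.1 CPM in libraries 4, 8 and 12. No set lay entirely above or below the rest; library 8, labelled Y273F control 2, was highest and library 1, labelled WT control 1, lowest. Among the 10 genes in all 4 comparisons, its difference between Y273F control and WT control had the smallest unadjusted p. Means were 28.9 ± 6.40 and 22.1 ± 4.43 CPM (SD, n = 3 each). The log2 fold change of 0.38 (SE 0.18, interval -0.02 to 0.78) did not pass (edgeR adjusted p = 0.9942).

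DYRK3, a class II kinase known for dissolving stress granules and other condensates (chr1:206635536-206655158), was read at 28.0, 21.8 and 18.6 CPM in libraries 2, 6 and 10. The other 9 libraries lay between 6.63 and 15.4 CPM, so these 3 were the highest of all. The set median was 1.72-fold that of the other 9, or 0.78 on the log2 scale. Library 3, labelled WT control 3, was the lowest at 6.63 CPM, from 60 counts. Since library 2 and library 3 share the title WT control, that group spread most, at 15.4 ± 11.2 CPM against 16.0 ± 5.45 CPM with doxycycline (SD, n = 3 each). The log2 fold change in the WT line was 0.08 (SE 0.43), and in the Y273F line 0.27 (SE 0.44), both within the spread.

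DYRK4, another class II kinase (chr12:4562208-4613875), was low in the set where DYRK3 was high. It was read at 36.1, 28.7 and 38.6 CPM in libraries 2, 6 and 10, and between 48.1 and 61.3 CPM in the other 9. The 3 libraries were thus the lowest, with a median 0.712 times that of the rest. Libraries 4, 8 and 12 were read at 50.7, 50.6 and 49.1 CPM, close together and inside the range of sets 1/5/9 and 3/7/11. By title, its log2 fold change with doxycycline was -0.25 (SE 0.24) in the WT line and -0.13 (SE 0.24) in the Y273F line.

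The HIPKs varied less. HIPK1 (chr1:113929324-113977869) ranged from 21.3 to 29.7 CPM, and libraries 4, 8 and 12 were read at 25.9, 29.7 and 28.4 CPM. That was above all of libraries 3, 7 and 11, at 21.3, 24.5 and 22.9 CPM, but library 5, labelled WT doxycycline 2, reached 27.3 CPM. HIPK2, which phosphorylates p53 after DNA damage (chr7:139561570-139777998), was read at 288, 238 and 237 CPM in libraries 4, 8 and 12 and at 212, 199 and 202 CPM in libraries 3, 7 and 11. These sets did not overlap for HIPK1, HIPK2 or DYRK1B, all with 4/8/12 above 3/7/11, which held for 8.82% of all genes tested (8.53% had 4/8/12 below). HIPK2 in libraries 1, 5 and 9, at 249, 233 and 258 CPM, also lay above libraries 3, 7 and 11, so its difference is not limited to set 4/8/12.

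HIPK3 (chr11:33256672-33357023) was read at 57.4, 55.3 and 53.4 CPM in libraries 2, 6 and 10. Of the other 9, 8 lay between 40.5 and 48.3 CPM, and library 11, labelled Y273F doxycycline 2, reached 56.3 CPM, so the ranges met. By title, log2 fold changes of the HIPKs with doxycycline lay between -0.07 and 0.18 in the WT line and between -0.03 and 0.13 in the Y273F line, with SEs of 0.15 to 0.16. The intervals of HIPK2, -0.21 to 0.46 and -0.37 to 0.30, limit how far it could differ between labels in either direction.

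DCAF7, the WD-repeat scaffold that links class I DYRKs and HIPK2 to their substrates (chr17:63550477-63594266), was read at 302, 296 and 243 CPM in libraries 4, 8 and 12. The other 9 libraries lay between 213 and 283 CPM and overlapped with these. By title it was the only one of the 10 genes whose doxycycline and control libraries did not overlap. In the Y273F line it was read at 240, 229 and 243 CPM with doxycycline and at 252, 296 and 250 CPM without. The means were 237 ± 7.74 and 266 ± 26.0 CPM (SD, n = 3 each). Its log2 fold change there was -0.16 (SE 0.14, edgeR adjusted p = 0.9924). Such a gap occurred in 10.9% of all genes in that comparison, and 1 of 10 is near that share. In the WT line 0 of the 10 genes were without overlap, against 3.27% of all genes tested, and DCAF7 itself had a log2 fold change of 0.11 (SE 0.14). The difference between the lines was 0.27 (SE 0.20, interval -0.17 to 0.72) and did not pass.

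LIN52 (chr14:74084956-74201493) was read at 15.8, 15.0 and 14.8 CPM in libraries 2, 6 and 10. The other 9 libraries lay between 15.8 and 22.9 CPM, where library 11, labelled Y273F doxycycline 2, came just under library 2. With library totals alone, upper-quartile factors or the merged table, the 3 libraries lay entirely below the rest, so this overlap depends on the scaling. The set median was 0.782 times that of the other 9. By title, log2 fold changes were 0.06 (SE 0.19) in the WT line and -0.19 (SE 0.19) in the Y273F line. The serine that DYRK1A phosphorylates is encoded by codon 28, TCA at chr14:74091282-74091284, in capitals below, in the reference window chr14:74091261-74091305 (GRCh38, plus strand).
LIN52: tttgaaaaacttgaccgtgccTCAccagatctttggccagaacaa
LIN52 transcript levels carry no information on this phosphorylation.

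The 250 bases upstream of annotated starts were searched on both strands for 3 motifs in the 8 genes with a RefSeq promoter entry (GRCh38.p14), since DYRK3, DYRK1A, DYRK4 and, near the border, LIN52 differed in the same 3 libraries. The motifs were TGANTCA for AP-1, TTTGAA for the cell-cycle homology region and TTTNNCGC for E2F. Of 35116 windows of that length in the table, 6.57%, 13.3% and 5.92% held them. The single LIN52 window had 1 E2F match, starting 25 bases before the start and capitalised here (chr14:74084706-74084955, plus strand).
LIN52 upstream: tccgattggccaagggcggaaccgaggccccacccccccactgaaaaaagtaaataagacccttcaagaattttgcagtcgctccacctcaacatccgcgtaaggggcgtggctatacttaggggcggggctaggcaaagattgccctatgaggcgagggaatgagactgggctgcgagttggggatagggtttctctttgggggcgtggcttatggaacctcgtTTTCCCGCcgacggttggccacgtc
The DYRK3, DYRK1B and DCAF7 windows held none of the 3 motifs. An AP-1 match was found in 1 of the 6 DYRK1A windows, in 2 of 5 for DYRK4 and in 1 of 3 for HIPK1. The cell-cycle homology motif was found in 2 of the 6 DYRK1A windows, 1 of them the window with the AP-1 match. The 3 HIPK3 windows also held none of the motifs. A match is a description of the letters, not evidence of binding, and none of these windows was measured here.

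Across the 10 genes, variation followed the library sets more than the titles. The sets accounted for 88.9% of the sum of squares of log2 CPM for DYRK1A, 80.3% for DYRK1B, 79.8% for DYRK4 and 71.5% for DYRK3. The title groups accounted for 7.18%, 18.8%, 13.3% and 6.62% of the same sums. The shares were closest for DYRK2, with 39.3% by set and 37.6% by title. The share by set was the larger in 10 of 10 genes, and in 80.9% of all genes tested, with medians over all genes of 58.5% by set and 17.7% by title. Since the sets were found on these profiles, a larger share by set is no independent finding about the 10 genes.

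**Figure D3:**
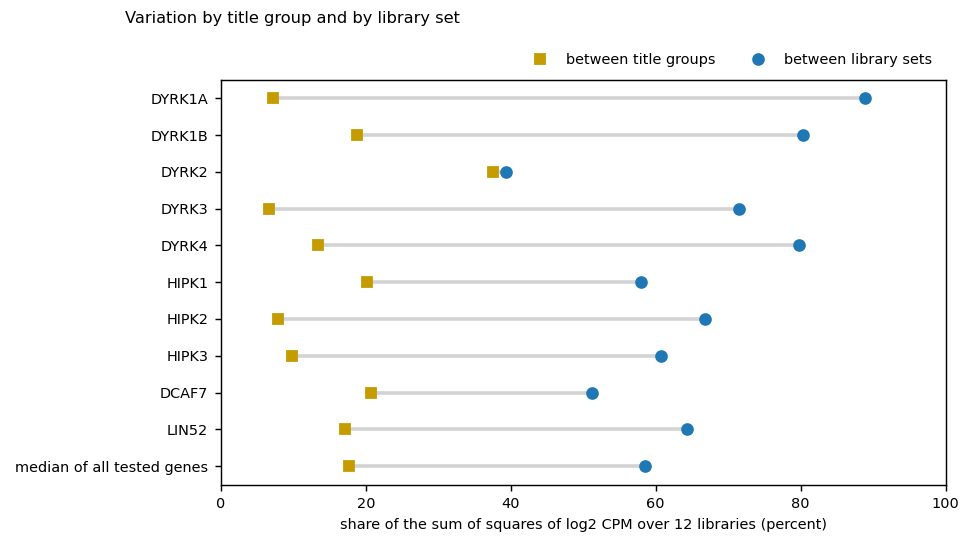
For each gene, the square marks the share (percent) of the sum of squares of log2 CPM over the 12 libraries that lies between the 4 title groups, and the circle the share between the 4 library sets. Circles lie right of squares in all 10 genes, with DYRK1A farthest apart (7.18% and 88.9%) and DYRK2 closest (37.6% and 39.3%); the bottom line is the median of all genes tested.

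Compared pair by pair, set 2/6/10 separated from set 4/8/12 for 8 of the 10 genes. DYRK3 and HIPK3 were above, and DYRK1A, DYRK1B, DYRK4, HIPK1, DCAF7 and LIN52 below, where 47% of all genes tested did not overlap (24.7% above and 22.3% below). Against set 1/5/9, set 2/6/10 was without overlap for 5 of the 10, with DYRK3 and HIPK3 above and DYRK1A, DYRK4 and LIN52 below, against 54.2% of all genes (27.2% above and 27.1% below). Sets 3/7/11 and 1/5/9 separated only for HIPK2, with 3/7/11 below, against 19.3% of all genes (9.44% with 3/7/11 above and 9.87% below). Against all other 9 libraries at once, set 2/6/10 separated for 3 of the 10 genes (34.1% of all genes), set 4/8/12 for 1 (2.44%), and sets 1/5/9 and 3/7/11 for 0 (5.35% and 2.34%). Set 1/5/9 lay entirely above the other 9 for 2.94% of all genes and below for 2.41%, and set 3/7/11 above for 1.22% and below for 1.12%.

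The genes whose profiles lay closest to DYRK1B and DYRK3 over the 12 libraries were sought among 10579 genes with a mean of at least 5 CPM, by the mean absolute difference of centred log2 CPM. For DYRK1B these were PHGDH (0.43), SOX7 (0.51), PCK2 (0.52), NGEF (0.53) and PSAT1 (0.54), where the median gene was at 0.85 and a flat profile would be at 0.82. PHGDH was read at 97.0 to 127 CPM in libraries 4/8/12, at 21.1 to 24.7 CPM in 1/5/9, at 47.9 to 60.1 CPM in 2/6/10 and at 32.3 to 37.3 CPM in 3/7/11. PHGDH thus shared the high libraries of DYRK1B, but its other 3 sets did not overlap with each other, while those of DYRK1B did. For DYRK3 the closest were DENND3 (0.12), AFF4 (0.15), NOPCHAP1 (0.15), MYO5A (0.16) and RHOU (0.16), with the median gene at 0.42 and a flat profile at 0.37. All points share libraries and depth, so these distances are a description.

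Partners and targets of the kinases gave 0 calls in any comparison of titles, in 7 lists of 4 to 20 genes. Of the DREAM and MuvB partners of LIN52, 11 of 12 were tested (LIN37 was not), and in libraries 2/6/10 4 lay entirely below and 1 above the other 9 libraries, beside 15.6% of all genes below and 18.5% above. MYBL2, the B-MYB factor that takes the place of the repressor proteins on MuvB, was at 29.5 to 40.4 CPM there against 44.8 to 68.0 CPM elsewhere. FOXM1, which drives mitotic genes with it, was at 45.7 to 58.8 against 64.5 to 77.8 CPM. LIN9 and RBBP4, MuvB core subunits, had log2 ratios of set median to the other 9 of -0.54 and -0.40. LIN52 and LIN54, also core subunits, had -0.35 and -0.56, but both overlapped with the other 9. E2F4, a DREAM factor that contacts DNA, was above, with a log2 ratio of 0.27.

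Among 19 tested DYRK substrates of 20 listed, 4 lay entirely above and 4 below in libraries 2/6/10, beside 18.5% and 15.6% of all genes tested. JUN, the AP-1 subunit that DYRK2 marks for degradation, was at 126 to 138 CPM against 13.2 to 47.0 CPM, a log2 ratio of 2.65. GLI1, the Hedgehog pathway factor, was at 4.22 to 8.01 against 14.1 to 20.9 CPM, and the deacetylase SIRT1 at 16.3 to 24.3 against 31.7 to 52.2 CPM. NFATC2, one of the NFAT factors whose nuclear export DYRKs favour, was at 4.41 to 6.01 against 9.15 to 15.8 CPM. The other 4 without overlap were named after their values were seen. CDKN1B, which encodes p27, was at 27.0 to 36.0 against 52.7 to 71.9 CPM. The cyclin D genes CCND3 and CCND1 were above, with log2 ratios of 0.78 and 0.43, as was GSK3B, a kinase that DYRKs prime substrates for, with 0.48. In libraries 4/8/12, where DYRK1B was high, 0 of the tested genes in the 7 lists lay entirely above or below the other 9, beside 2.44% of all genes tested, a share at which few would be found in lists of this size.

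Of 18 HIPK partners, 4 lay above and 3 below in libraries 2/6/10. PML, the scaffold of the nuclear bodies that hold HIPK2, was at 24.3 to 32.3 against 8.05 to 12.9 CPM, and MDM2, the p53 ubiquitin ligase, at 153 to 161 against 75.1 to 93.6 CPM. The adaptor FADD had a log2 ratio of 0.51, and SIAH1, a ubiquitin ligase that targets HIPK2, of -0.54. Of 8 Hsp90 chaperones and cochaperones, CDC37, the cochaperone for kinases, was above at 278 to 284 against 165 to 208 CPM. FKBP5 was below at 18.6 to 19.2 against 31.4 to 41.9 CPM, as was PTGES3 with a log2 ratio of -0.25. FAM117A was the 1 of 10 tested class I and DCAF7 binding partners outside the range, with a log2 ratio of 1.02. DCAF1, the substrate receptor of the DYRK2 ubiquitin ligase, was the 1 of 4 there, with -0.74, and CLK1 the 1 of 7 tested other kinases of the superfamily, with -0.57. These counts in libraries 2/6/10 stand beside the same shares, 34.1% of all genes tested in either direction. FKBP5 also lay entirely above the other 9 in libraries 3/7/11, at 39.9 to 41.9 against at most 39.2 CPM, as 1.22% of all genes did. In bulk RNA, fewer cells of a type and less RNA per cell cannot be told apart.

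**Figure D4:**
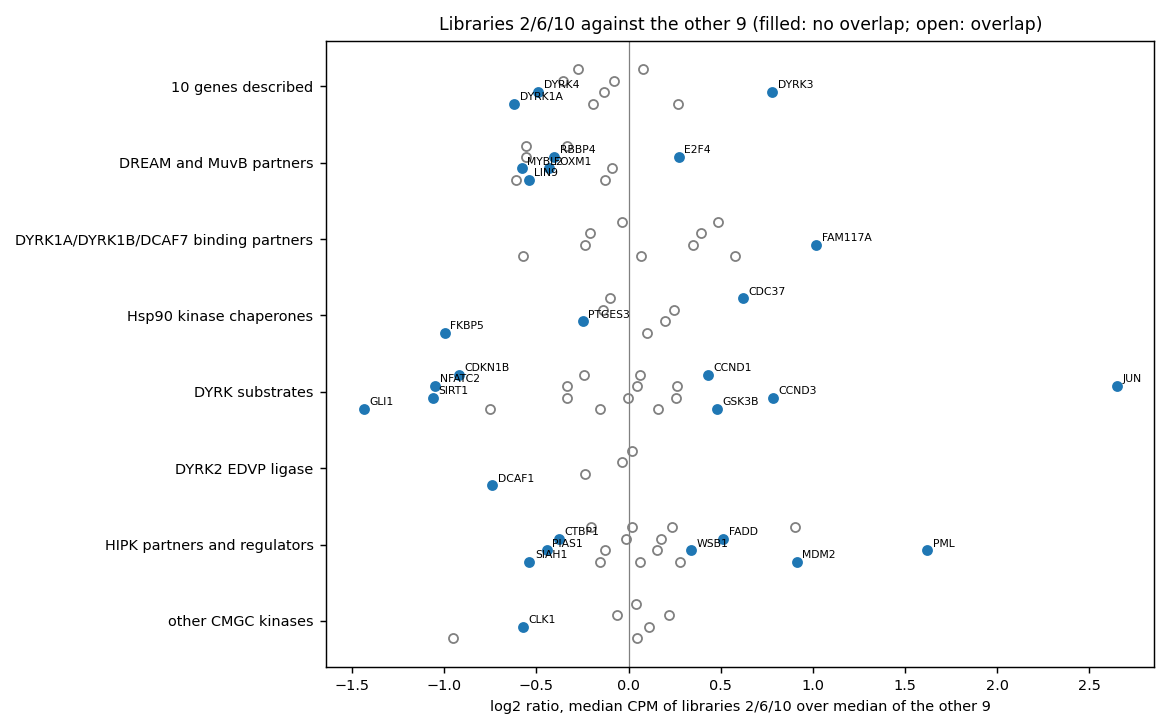
Each point is a tested gene, placed by the log2 ratio of its median CPM in libraries 2/6/10 to its median in the other 9; filled points are genes whose 3 libraries lie entirely above or below the rest, open points overlap, and vertical spacing within a row only separates points. JUN at 2.65 and GLI1 at -1.44 are the extremes, and DYRK3 (0.78), DYRK4 (-0.49) and DYRK1A (-0.62) are the filled points of the 10 genes described.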

How the data were processed

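Per the labels' protocols, column-purified RNA was made into QuantSeq FWD V2 libraries, and the submitters' processing notes name STAR and GRCh38.p14. No source used here gives the STAR version, the annotation release or the handling of duplicate reads. Deposited by the authors were integer read counts of each gene, without strand and for each strand, and a merged count table. The transcript-strand counts were used, and the 10 genes have equal values in the merged table. Reads assigned to no gene (35.5% to 43.2% of a library) were left out, and the opposite strand held 7.25% to 8.07% of stranded counts, at most 19 counts in all for any of the 10 genes. Total counts were 2820000 to 22300000, so low genes are less precise in libraries 8 and 10.

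Groups came from the sample titles. Genes that passed filterByExpr at a minimum count of 10 were scaled by TMM. They were tested in a single model of 4 group means with edgeR 4.0.16 (glmQLFit, glmQLFTest, R 4.3.3). Benjamini-Hochberg adjustment was over 13838 genes, with a threshold of 0.05. The procedure was tested on simulated counts that held no library sets, so that check does not show its power on these libraries. Standard errors were derived from the edgeR test, as the absolute log2 fold change over the square root of its F statistic. The 95% intervals apply a t quantile, at the test's total degrees of freedom, to these standard errors. Its p-values set differences of group means against the spread of libraries within title groups. Those groups mix library sets, so that spread is not only that of replicates. Library sets were described by level, median and overlap. The alternatives were DESeq2 1.42.0 (size factors, Wald test), limma-voom 3.58.1, upper-quartile factors, library totals, other filters, a replicate block, fewer groups, other count columns and leaving out each library. Same-numbered libraries of different groups had deviation correlations of -0.66 to 0.54, with 3 of 18 pairs over 0.1. Each title group mixes library sets, so these correlations also carry the sets and cannot decide whether the numbers pair the libraries. No pair of libraries was identical or within counting noise. Sequences and coordinates are from GENCODE release 29 transcripts (longest coding sequence) and RefSeq tables, read with Biopython 1.88.

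The 10 genes, the lists and the library sets were chosen with earlier results of these data known. Genes named beyond the 10 are, per list, up to 4 with no overlap and a mean level of 5 CPM or more, by absolute log2 ratio, and the 5 nearest profiles of genes whose SD of log2 CPM was at least 0.4. E2F4 and LIN54 were named after their values were seen.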

Additional observations from a re-analysis of the deposited data

How the results depend on the processing

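The count of genes called stayed at 0 in all 4 comparisons with every normalization, filter, test and count column tried, and the range on leaving out 1 library was 0 to 1. A single gene was called for doxycycline in the Y273F line without Y273F control 2, Y273F doxycycline 2 or Y273F doxycycline 3, for the difference of the effects without Y273F doxycycline 2 or 3, and for Y273F control against WT control without Y273F control 2; none of the 10 genes was called. With the replicate block, 0 genes were called, and the log2 fold change of DYRK1B was 1.38 in the WT line, 0.68 in the Y273F line, 0.71 for the difference and 0.36 between the controls. HIPK1 in the Y273F line, at -0.0040, turned to 0.000703 with the stricter filter, 0.032 with DESeq2, 0.097 with limma-voom, 0.000474 with the replicate block, 0.015 with only the groups compared, 0.0028 with unstranded counts and 0.000607 with the merged table. With limma-voom, signs turned for DYRK1B (-0.63 for the difference, -0.49 between controls) and DYRK3 (0.17 for each). On leaving out 1 library, the ranges of log2 fold changes that changed sign were as follows. In the WT line they were -0.24 to 0.13 for DYRK1A, -0.29 to 0.81 for DYRK3, -0.0174 to 0.23 for HIPK2, -0.19 to 0.034 for HIPK3, -0.013 to 0.25 for DCAF7 and -0.13 to 0.18 for LIN52. In the Y273F line they were -0.25 to 1.78 for DYRK1B, -0.12 to 0.12 for HIPK1 and -0.14 to 0.048 for HIPK2. For the difference they were -0.044 to 0.32 for DYRK1A, -0.59 to 1.69 for DYRK1B, -0.56 to 0.55 for DYRK3 and -0.32 to 0.10 for DYRK4. Between the controls they were -0.16 to 0.21 for DYRK1A, -0.73 to 0.57 for DYRK1B, -0.60 to 0.50 for DYRK3, -0.26 to 0.076 for DYRK4 and -0.025 to 0.16 for HIPK2. The cause of these turns was not tested. DYRK1B above in libraries 4/8/12, and DYRK3 above and DYRK1A and DYRK4 below in 2/6/10, held under every scaling and count column tried. The levels themselves were less fixed. Among set medians of the 10 genes with no library left out, 14 were labelled as moved, 186 as the same and 0 as reversed. Depth limits DYRK1B most, since 13 to 72 counts lie behind its low libraries.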
